A study of Mus musculus with 12 samples.

Results

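The effect of losing Nkx2-5, averaged over hearts with and without Tbx5, was measured on 20875 probe sets for 19105 genes, out of 35557 probe sets on the arrays. These are the probe sets that carried exactly 1 gene symbol and that lie outside the X and Y chromosomes. The 6 arrays with Nkx2-5 KO in the title were set against the 6 arrays without it, and the Tbx5 KO label entered the fit as a covariate. The 12 arrays came from mouse embryos at E8.75 (embryonic days), when the heart is a looping tube whose chambers are beginning to form. They fell into 4 groups of 3 arrays, given as biological replicates: Nkx2-5 KO, wild type (WT), Tbx5 KO;Nkx2-5 KO (double KO) and Tbx5 KO. The first pair of groups differs by the Nkx2-5 label in hearts without the Tbx5 KO label, and the second pair differs by the same label in hearts labelled Tbx5 KO. The labels give neither the strain, nor the allele, nor which part of either gene was deleted, nor whether embryos were pooled. Each array measured total RNA of dissected hearts, so fewer cells of a type and less RNA per cell cannot be told apart.

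Nkx2-5 is a homeodomain transcription factor of cardiac progenitors and heart muscle. In mice its loss stops heart development around looping, with chamber muscle genes such as the natriuretic peptide Nppa among the classical genes that need it. It binds DNA together with the T-box factor Tbx5 and the zinc finger factor Gata4, which is why its effect is of interest in hearts with and without Tbx5.

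All values are log2 expression values, so that 1 unit is a 2-fold difference. A change is the averaged log2 difference, Nkx2-5-mutant arrays minus Nkx2-5-intact arrays, followed by ± its standard error (SE) from limma over all 12 arrays. A probe set was called, and is said to have risen or fallen, when its limma p, adjusted by Benjamini and Hochberg over all 21789 probe sets with 1 symbol, was under 0.05. The median of all tested probe sets lay at 0.027, close to no change. Array medians were 8.05 to 8.25. The standard deviation over probe sets was 2.05 to 2.10 on the double KO arrays, 2.13 to 2.16 on the Tbx5 KO arrays, 2.13 to 2.16 on the Nkx2-5 KO arrays and 2.17 to 2.19 on the WT arrays. One property of the embryos moved with the genotype: the mean level of 3 Y-linked genes was 9.08 to 9.88 on the 6 Nkx2-5-mutant arrays and 5.76 to 6.95 on the other 6, and the RNA that silences an X chromosome was at 6.44 to 8.16 against 11.46 to 12.32. The sex of the embryos and the Nkx2-5 genotype therefore cannot be told apart in any of the results, in either Tbx5 state.

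The promoters of 3 genes that fell are shown because they are muscle genes whose levels parted in both Tbx5 states and because they hold the DNA element that Nkx2-5 is known to bind. The element searched was TNAAGTG on either strand, and the T-box element AGGTGTG was searched the same way. Sequences run 5′ to 3′ from 250 bases before to 50 bases after the gene's start, are RefSeq's for GRCm38.p6, and have both elements in capitals.
Nppa, chr4:148000472-148000771, plus strand: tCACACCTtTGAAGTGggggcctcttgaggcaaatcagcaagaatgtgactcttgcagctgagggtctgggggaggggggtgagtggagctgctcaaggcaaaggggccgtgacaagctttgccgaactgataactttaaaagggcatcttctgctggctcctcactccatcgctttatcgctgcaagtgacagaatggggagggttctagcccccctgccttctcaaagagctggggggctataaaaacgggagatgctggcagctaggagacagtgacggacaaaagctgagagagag
Lrrc10, chr10:117045091-117045390, plus strand: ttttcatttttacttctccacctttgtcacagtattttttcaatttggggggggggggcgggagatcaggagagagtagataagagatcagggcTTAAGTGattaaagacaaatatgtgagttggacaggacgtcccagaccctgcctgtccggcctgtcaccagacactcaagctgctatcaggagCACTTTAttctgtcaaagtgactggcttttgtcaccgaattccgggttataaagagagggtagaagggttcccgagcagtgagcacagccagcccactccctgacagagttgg
Smyd1, chr6:71262232-71262531, minus strand: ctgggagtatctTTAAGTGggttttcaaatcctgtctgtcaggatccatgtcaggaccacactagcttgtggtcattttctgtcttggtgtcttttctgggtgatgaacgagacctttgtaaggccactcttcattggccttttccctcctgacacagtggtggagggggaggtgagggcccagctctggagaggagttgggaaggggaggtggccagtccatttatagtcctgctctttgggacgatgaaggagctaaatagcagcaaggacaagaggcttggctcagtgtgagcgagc
In Nppa the Nkx2-5 element begins 241 bases before the start and a T-box element, on the other strand, begins 249 bases before it. Lrrc10 holds the Nkx2-5 element 156 bases before the start and, on the other strand, 63 bases before it. Smyd1 holds it 238 bases before the start.

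The Nkx2-5 element stood in 10.3% of the promoters of all tested genes, in 9.18% of those of genes called lower and in 8.13% of those of genes called higher. Among genes called lower in both Tbx5 states the share was 11.1%, and among those called higher in both it was 6.35%. The T-box element stood in 5.18% of the promoters of all tested genes, in 4.39% of those called lower and in 4.51% of those called higher. Among genes called lower in both Tbx5 states its share was 7.01%, and among those called higher in both it was 4.76%. A match is a run of letters and does not show binding.

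The Nkx2-5 probe set was lower on every Nkx2-5-mutant array. It read 8.96, 8.72 and 9.13 in Nkx2-5 KO hearts, against 9.33, 9.36 and 9.35 in WT hearts. It read 9.05, 9.21 and 8.97 in double KO hearts, against 9.38, 9.31 and 9.36 in Tbx5 KO hearts. All 6 mutant values lay below all 6 intact values, and the change was -0.34 ± 0.075 (adjusted p = 0.0083, limma). This is a 1.27-fold lower level, and with the deleted part of the gene unknown it does not check the genotypes. The Tbx5 probe set read 10.53, 10.15 and 10.29 in Nkx2-5 KO hearts, against 10.15, 10.13 and 9.90 in WT hearts. It read 10.31, 10.65 and 10.83 in double KO hearts, against 10.73, 10.42 and 10.45 in Tbx5 KO hearts. It did not pass the test for the Nkx2-5 label (0.16 ± 0.10, adjusted p = 0.342) and was not lower on the arrays with the Tbx5 KO label (0.37 ± 0.10 higher, adjusted p = 0.0438, limma). What the probe set measures of a deleted allele is not known here, so it does not check that label either, and hearts are called with or without Tbx5 by their labels.

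Between arrays with and without the Nkx2-5 KO label, 3262 of the 20875 probe sets (15.6%) differed, and more of them fell than rose. There were 1135 called higher (5.44%) and 2127 called lower (10.2%). When each array was centred on its own median the split was 631 higher and 2823 lower. A change of at least 1 log2 unit was called for 157 probe sets (0.752%), 56 higher (0.268%) and 101 lower (0.484%). On 885 probe sets (4.24%) the 6 mutant arrays did not overlap with the 6 intact ones. Of the falls, 1968 were on probe sets above the median level and 159 on those below it, and of the rises 835 were above and 300 below.

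Among chamber muscle genes the largest fall was that of Nppa, which encodes atrial natriuretic peptide. Nppa stood at 11.26, 10.08 and 10.82 in Nkx2-5 KO hearts, against 13.29, 13.52 and 13.29 in WT hearts. It stood at 8.01, 8.37 and 8.02 in double KO hearts, against 10.45, 10.09 and 9.63 in Tbx5 KO hearts. In both states every mutant heart was below every intact one, and the Nkx2-5 KO hearts overlapped with the Tbx5 KO hearts. The change was -2.29 ± 0.21, or 4.88-fold lower (adjusted p = 6.38e-05, limma).

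Lrrc10, a leucine-rich repeat protein of heart muscle, showed no overlap across genotypes. It read 7.90, 7.66 and 7.64 in Nkx2-5 KO hearts, against 8.77, 9.48 and 9.12 in WT hearts. It read 7.06, 7.32 and 7.21 in double KO hearts, against 8.02, 8.39 and 8.06 in Tbx5 KO hearts. The change was -1.18 ± 0.13 (adjusted p = 0.000215). Myl2, the ventricular regulatory light chain of myosin, changed by -0.58 ± 0.076 (adjusted p = 0.000515), and its 6 mutant values of 12.85 to 13.64 all lay below the 6 intact values of 13.66 to 14.04. Pln, the brake on the sarcoplasmic reticulum's calcium pump, fell by 1.48 on the log2 scale (SE 0.28, adjusted p = 0.00366). Its effect was -0.75 in hearts without Tbx5 (adjusted p = 0.109) and -2.22 in hearts with it (adjusted p = 0.00178). The difference between the states did not pass (adjusted p = 0.163).

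Among chamber and trabecular myocardium genes, 11 of 23 fell and 1 rose, beside 10.2% lower and 5.44% higher of all probe sets. Their median change was -0.20. The mean level of the list was 9.91 to 10.06 in Nkx2-5 KO hearts against 10.41 to 10.58 in WT hearts, and 9.38 to 9.43 in double KO hearts against 9.58 to 9.77 in Tbx5 KO hearts. The list parted the genotypes in both states. Besides Nppa and Lrrc10, Irx4, a ventricular homeobox factor, fell by 0.79 on the log2 scale (SE 0.12, adjusted p = 0.00126) with no overlap among all 12 arrays. Csrp3, a muscle LIM protein, fell by 0.54 on that scale (SE 0.092, adjusted p = 0.00204). Gja5, the atrial and conduction connexin, had a change of -1.09 ± 0.31 (adjusted p = 0.0332), and this call was lost without any one of several single arrays (WT replicate 1, 2 or 3, Nkx2-5 KO replicate 1, 2 or 3, Tbx5 KO replicate 1 or 2, or double KO replicate 2), with adjusted p-values up to 0.0755. Its effect was -0.42 in hearts without Tbx5 (adjusted p = 0.525) and -1.76 in hearts with it (adjusted p = 0.023). The difference between the states did not pass (adjusted p = 0.443).

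Of 28 cardiac transcription factors and cofactors, 7 fell and 3 rose (25% and 10.7%, beside 10.2% and 5.44% of all probe sets). Their median change was 0.057. Among those that fell were Hand1 (-0.94 ± 0.15, adjusted p = 0.00136), a factor of the left ventricle, Smyd1 (-0.69 ± 0.11, adjusted p = 0.00177), a histone methyltransferase of muscle, and Zfpm2 (-0.67 ± 0.15, adjusted p = 0.00937), a partner of Gata4. Smyd1 and Zfpm2 had no overlap between the 6 mutant and the 6 intact arrays. Gata4 itself had a change of 0.17 ± 0.091 (adjusted p = 0.264) and Tbx20 one of -0.05 ± 0.12 (adjusted p = 0.831). The 3 that rose, Gata5, Mef2a and Nkx2-6, came down to 1 without WT replicate 1 or without Tbx5 KO replicate 1.

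The contractile apparatus had a median change near 0 (-0.06). Of 42 sarcomere and myofibril genes, 8 fell and 4 rose (19% and 9.52%, beside 10.2% and 5.44% of all probe sets). These genes were bright, with a list mean of 11.34 to 11.51 in Nkx2-5 KO and 11.47 to 11.61 in WT hearts. An excess of falls over probe sets of like level is therefore not shown. After each array was centred on its median, 13 fell. Xirp1, an actin-binding protein of cell contacts in muscle, read 9.63 to 9.74 in Nkx2-5 KO hearts against 10.26 to 10.41 in WT hearts, and 9.48 to 9.62 in double KO hearts against 10.31 to 10.39 in Tbx5 KO hearts. The groups were tight and far apart in both states (-0.72 ± 0.058, adjusted p = 2.35e-05). Lmod2, which elongates thin filaments, fell by 0.65 on the log2 scale (SE 0.13, adjusted p = 0.00466). The atrial myosin heavy chain Myh6 did not pass (-0.33 ± 0.14, adjusted p = 0.145), but did when 4 group means were fitted (adjusted p = 0.04). Its effect was -0.70 in hearts without Tbx5 (adjusted p = 0.0074), with no overlap, and 0.04 in hearts with it (adjusted p = 0.932), and the difference between the states did not pass (-0.75, adjusted p = 0.165). Bmp10, a ligand of trabecular muscle, did not pass (0.06 ± 0.16, adjusted p = 0.845). The 4 that rose were Myh7, Lmod3, Ldb3 and Fhod3, by 0.25 to 0.50.

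**Figure D1:**
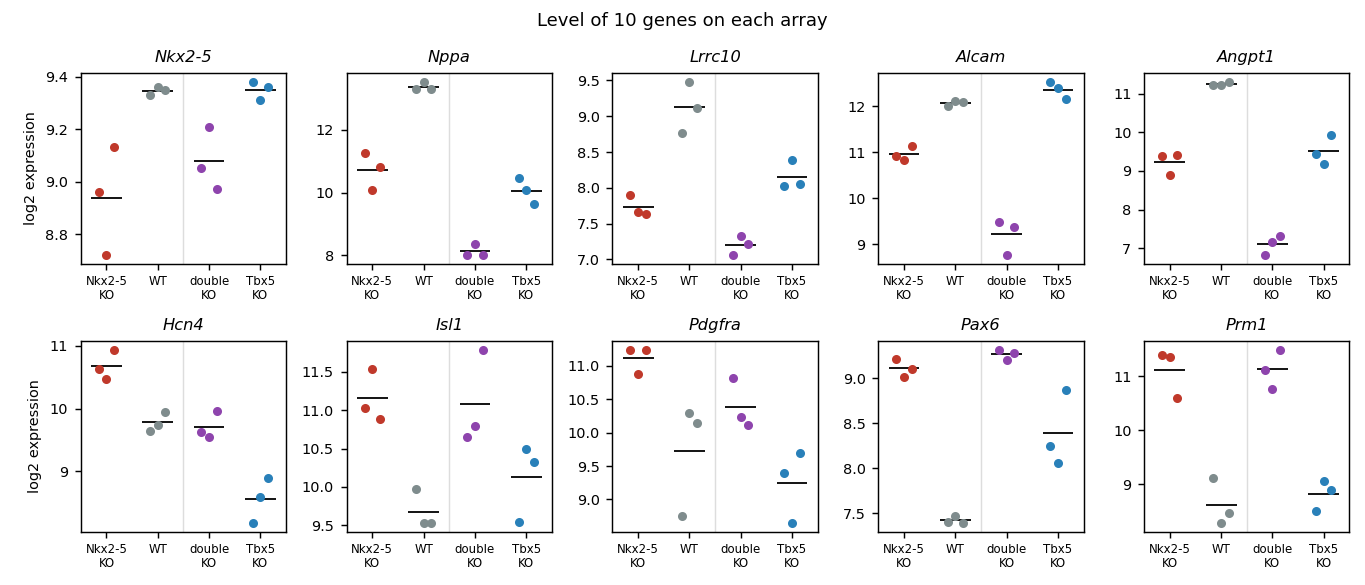
Level (log2 expression) of 10 genes on each of the 12 arrays. Points are arrays, black lines are group means, and the grey line parts the hearts with intact Tbx5 (Nkx2-5 KO, WT) from those without it (double KO, Tbx5 KO). Nppa, Lrrc10, Alcam and Angpt1 sit lower and Hcn4, Isl1, Pdgfra, Pax6 and Prm1 higher in the Nkx2-5-mutant group of each pair, while the Nkx2-5 probe set itself differs by 0.34.

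Of 23 genes of calcium handling, 5 rose and 4 fell (21.7% and 17.4%, beside 5.44% and 10.2% of all probe sets). Of 24 ion channel and conduction genes, 2 rose and 2 fell (8.33% each), which is near the shares over all probe sets. Casq1, a calcium-binding protein of the sarcoplasmic reticulum, fell by 0.84 on the log2 scale (SE 0.10, adjusted p = 0.000365), with no overlap among the 12 arrays. Abcc9, the regulatory subunit of the ATP-sensitive potassium channel, fell by 0.90 (SE 0.11, adjusted p = 0.000409). The 5 rises in calcium handling (Atp2a2, Ryr2, Jph1, Hrc and Vsnl1) came down to 2 or 3 without any one of WT replicates 1 and 3, Nkx2-5 KO replicates 1 and 3, Tbx5 KO replicates 1 and 2, or double KO replicates 1, 2 and 3. The falls in that list came down to 2 without Tbx5 KO replicate 1. The 2 falls among ion channel genes, Abcc9 and Gja5, came down to 1 without any one of WT replicates 1 to 3, Nkx2-5 KO replicates 1 to 3, Tbx5 KO replicate 1 or double KO replicate 2, and the 2 rises, Hcn4 and Kcnj2, to 1 without Tbx5 KO replicate 1.

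Some genes of the inflow tract and pacemaker region were called higher. Hcn4, the pacemaker channel, read 10.63, 10.48 and 10.94 in Nkx2-5 KO hearts, against 9.65, 9.74 and 9.95 in WT hearts. It read 9.63, 9.55 and 9.96 in double KO hearts, against 8.18, 8.60 and 8.90 in Tbx5 KO hearts. The mutant was the higher group in each pair, while the double KO hearts overlapped with the WT hearts. The change was 1.03 ± 0.13 (adjusted p = 0.000428). Of 20 inflow tract and atrioventricular canal genes, 6 rose and 2 fell (30% and 10%, beside 5.44% and 10.2% of all probe sets). The share of falls is thus near that over all probe sets. Rgs6, a regulator of G-protein signalling in pacemaker tissue, rose by 1.13 ± 0.16 (adjusted p = 0.000863) and Vsnl1, a neuronal-type calcium sensor protein, by 1.14 ± 0.22 (adjusted p = 0.00474). The Vsnl1 effect was 0.48 in hearts without Tbx5 (adjusted p = 0.133) and 1.80 in hearts with it (adjusted p = 0.000629). That difference between the states did not pass (adjusted p = 0.0591). Rspo3, a secreted Wnt amplifier, fell by 1.36 on the log2 scale (SE 0.25, adjusted p = 0.00336). The other fall, of Cpne5, was called or not with single arrays: only 1 of the 2 falls was called without WT replicate 1 or 2, Nkx2-5 KO replicate 2 or 3, Tbx5 KO replicate 2 or 3, or double KO replicate 1.

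Isl1, the homeobox factor of second heart field progenitors and of pacemaker cells, was higher on every mutant array. It read 11.03, 11.54 and 10.89 in Nkx2-5 KO hearts, against 9.97, 9.53 and 9.53 in WT hearts. It read 10.65, 10.80 and 11.79 in double KO hearts, against 9.54, 10.50 and 10.33 in Tbx5 KO hearts. The change was 1.22 ± 0.22 (adjusted p = 0.00332). Of 31 second heart field and progenitor genes, 8 rose and 2 fell (25.8% and 6.45%, beside 5.44% and 10.2% of all probe sets). Their median change was 0.15. The count of rises was 5 without Tbx5 KO replicate 3 or double KO replicate 2. Fgf10, a growth factor of that field, rose by 1.09 ± 0.28 (adjusted p = 0.0185) and Pdgfra, a growth factor receptor of progenitors and mesenchyme, by 1.26 ± 0.26 (adjusted p = 0.0056). The Fgf10 effect was 0.33 in hearts without Tbx5 (adjusted p = 0.475) and 1.85 in hearts with it (adjusted p = 0.00415). That difference between the states did not pass (adjusted p = 0.119). The falls were those of Sema3c and Wnt11, and that of Wnt11 was not called without most single arrays. Sema3c, an outflow tract guidance cue, fell by 1.28 on the log2 scale (SE 0.18, adjusted p = 0.000846), with no overlap among the 12 arrays.

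Of 24 measured FGF ligands, feedback inhibitors and targets, 9 rose (37.5%, beside 5.44% of all probe sets), none fell and 15 did not pass. The rises were 4 after centring each array on its median, and 5 without any one of WT replicate 1, Nkx2-5 KO replicate 1, and double KO replicates 1 and 2. The list mean was 8.89 to 8.97 in Nkx2-5 KO hearts against 8.54 to 8.74 in WT hearts, and 8.96 to 8.99 in double KO hearts against 8.74 to 8.79 in Tbx5 KO hearts. Il17rd, a feedback inhibitor of FGF receptors, rose by 0.80 ± 0.15 (adjusted p = 0.00351) and Spred1, an inhibitor of the Ras pathway, by 0.47 ± 0.12 (adjusted p = 0.0165). The BMP, Wnt, Notch and retinoic acid lists each had 2 to 4 called genes (9.52% to 16.7%, beside 15.6% of all probe sets). Leaving out single arrays gave 0 to 3 rises and 0 to 4 falls a list. The largest of these was Frzb, a secreted Wnt inhibitor, which rose by 1.54 ± 0.37 (adjusted p = 0.0134), with overlap between Nkx2-5 KO and WT hearts. The Wnt list differed by state. Of its 24 genes, 6 were called lower and 1 higher in double KO against Tbx5 KO hearts, where the background was 7.84% lower. None was called in Nkx2-5 KO against WT hearts, and 3 had a called difference between the states.

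Alcam and Angpt1 were among the 12 largest falls, and lack of overlap within each Tbx5 state was part of the rule that chose them. Alcam, a cell adhesion molecule of early heart muscle, read 10.92, 10.83 and 11.14 in Nkx2-5 KO hearts, against 12.01, 12.11 and 12.09 in WT hearts. It read 9.49, 8.76 and 9.38 in double KO hearts, against 12.53, 12.39 and 12.15 in Tbx5 KO hearts. No mutant value overlapped with an intact one (-2.13 ± 0.31, adjusted p = 0.000904), and the fall was larger in hearts without Tbx5, as tested below. Angpt1, the muscle-derived ligand of the endocardial receptor Tek, read 9.39, 8.89 and 9.42 in Nkx2-5 KO hearts, against 11.24, 11.24 and 11.31 in WT hearts. It read 6.82, 7.16 and 7.31 in double KO hearts, against 9.43, 9.19 and 9.94 in Tbx5 KO hearts. Each pair was apart without overlap (-2.23 ± 0.14, adjusted p = 5.57e-06), with effects of -2.42 in hearts without Tbx5 and -2.03 in hearts with it.

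Other large falls were those of 5 genes. Tlcd4 fell by 2.91 on the log2 scale (SE 0.35), with mutant values of 5.61 to 7.48 and intact values of 7.97 to 9.87. Plac8 fell by 2.59 (SE 0.18) with mutant values of 7.10 to 8.37 and intact values of 9.98 to 10.90. Dpysl3, which binds the cytoskeleton, fell by 1.96 (SE 0.13), Mylpf, a light chain of fast skeletal myosin, by 1.72 (SE 0.14), and Ddc, which makes dopamine and serotonin, by 2.15 (SE 0.23). Their adjusted p-values lay between 5.57e-06 and 0.00034, and lack of overlap within each Tbx5 state was part of the rule that chose them.

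Among the largest rises, Prm1, a protamine of sperm chromatin, read 11.40, 11.36 and 10.59 in Nkx2-5 KO hearts, against 9.11, 8.28 and 8.46 in WT hearts. It read 11.12, 10.76 and 11.49 in double KO hearts, against 8.50, 9.06 and 8.89 in Tbx5 KO hearts. The rise was 2.40 ± 0.19 (adjusted p = 2.01e-05), with an effect of 2.31 in hearts without Tbx5 and 2.50 in hearts with it. Rxfp1, the relaxin receptor, rose by 1.94 ± 0.25, Crebrf, a regulator of a stress-response factor, by 1.73 ± 0.25 and Epha4, an ephrin receptor, by 1.33 ± 0.19, with adjusted p-values of 0.000496, 0.000994 and 0.000827. Pax6, a homeobox factor of eye, brain and pancreas, read 9.22, 9.02 and 9.11 in Nkx2-5 KO hearts, against 7.40, 7.47 and 7.39 in WT hearts. It read 9.32, 9.20 and 9.28 in double KO hearts, against 8.25, 8.06 and 8.87 in Tbx5 KO hearts (1.28 ± 0.16, adjusted p = 0.000409). Of 20 genes of neural tissue, 3 rose, namely Pax6, Sox2 and Zic2 (15%, beside 5.44% of all probe sets), and none fell. Only 1 was called without WT replicate 1, WT replicate 2 or Tbx5 KO replicate 3.

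Immediate early genes, which cells switch on within minutes of a stimulus, were among the lists with the largest share of rises. Of 23, 14 rose and 1 fell (60.9% and 4.35%, beside 5.44% and 10.2% of all probe sets), and the median change was 0.50. Jun read 11.29, 11.63 and 11.34 in Nkx2-5 KO hearts, against 10.30, 10.40 and 10.44 in WT hearts. It read 11.39, 11.58 and 11.38 in double KO hearts, against 10.40, 10.11 and 10.39 in Tbx5 KO hearts. The 6 mutant hearts stood about 1 unit above the 6 intact ones (1.09 ± 0.081, adjusted p = 1.43e-05). Atf3 rose by 1.82 ± 0.17 (adjusted p = 7.36e-05), Egr1 by 1.67 ± 0.20 (adjusted p = 0.000305), Btg2 by 1.38 ± 0.14 (adjusted p = 0.000194) and Fosb by 1.23 ± 0.20 (adjusted p = 0.00146). The 1 fall was of Myc.

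Of 34 genes of low oxygen and glycolysis, 17 rose (50%, beside 5.44% of all probe sets) and 1, Hif1a, fell (median change 0.38). In double KO against Tbx5 KO hearts 7 were called higher and 1 lower (median change 0.21). In Nkx2-5 KO against WT hearts 13 were called higher and 1 lower (median change 0.56). No member had a called difference between the states. The list mean was 11.45 to 11.56 in Nkx2-5 KO hearts against 10.67 to 11.20 in WT hearts, and 11.58 to 11.61 in double KO hearts against 11.12 to 11.45 in Tbx5 KO hearts. Tbx5 KO replicate 3 came within the range of the Nkx2-5 KO hearts. Kdm3a, an oxygen-dependent histone demethylase, rose by 0.95 ± 0.11 (adjusted p = 0.00034), Slc2a3, a glucose transporter, by 1.01 ± 0.15 (adjusted p = 0.00126) and Pfkfb3, an activator of glycolysis, by 0.99 ± 0.17 (adjusted p = 0.0026). Each of these 3 was higher on all 6 mutant arrays than on any intact array.

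Falls were frequent among mitochondrial genes. Of 29 respiratory chain genes, 19 fell (65.5%, beside 10.2% of all probe sets) and none rose, with a median change of -0.31. In double KO against Tbx5 KO hearts 15 were called lower (median change -0.37, background 7.84%). In Nkx2-5 KO against WT hearts 2 were (median change -0.23, background 2.4%). Atp5g1, an ATP synthase subunit, fell by 0.53 on the log2 scale (SE 0.082, adjusted p = 0.00132) and Cyc1, a cytochrome of complex III, by 0.46 (SE 0.087, adjusted p = 0.00393). Of 34 genes of the citric acid cycle and fatty acid oxidation, 12 fell and 2 rose (35.3% and 5.88%, beside 10.2% and 5.44%). Of these 34, 10 were called lower and 2 higher in double KO against Tbx5 KO hearts. In Nkx2-5 KO against WT hearts 3 were called lower and none higher. No member of either list had a called difference between the states. Idh3a, a subunit of isocitrate dehydrogenase, fell by 0.81 (SE 0.076, adjusted p = 7.53e-05). Cd36, a fatty acid carrier, was 2.01-fold higher (adjusted p = 0.005). Only 1 of the 2 rises, Cd36 and Ppara, was called without Nkx2-5 KO replicate 3, any of the 3 Tbx5 KO replicates, or double KO replicate 2 or 3.

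**Figure D2:**
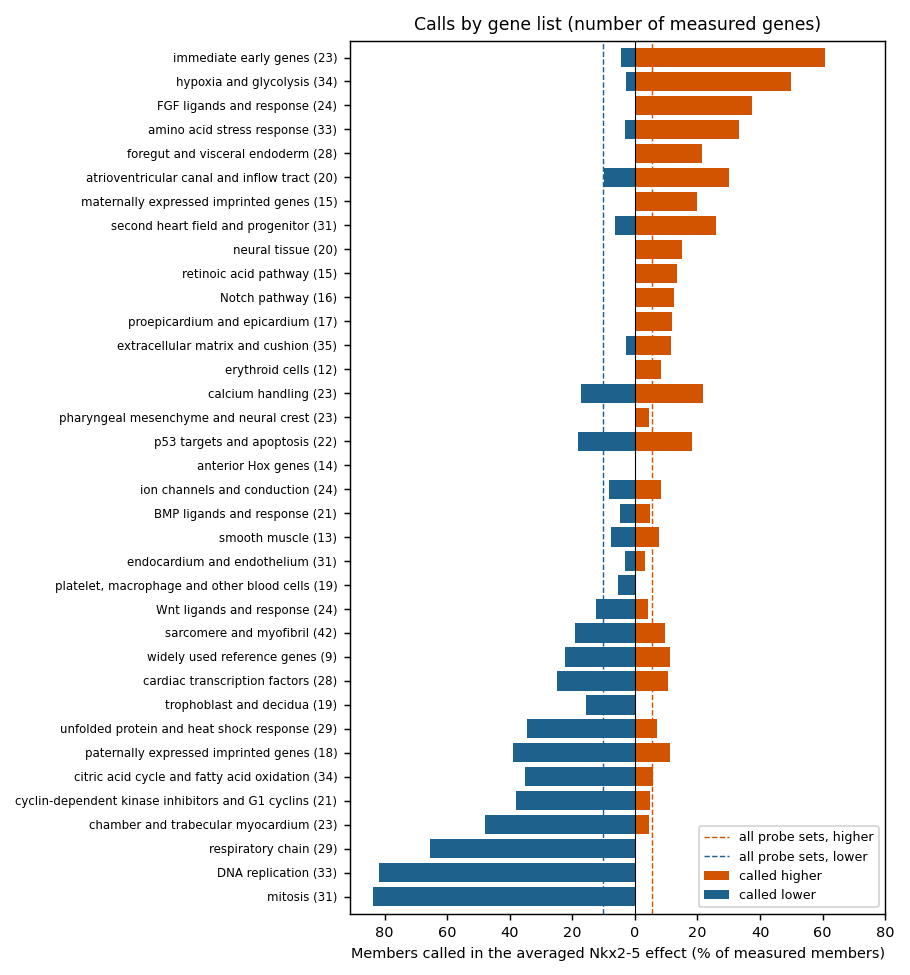
Share of the measured genes of each of 36 lists called higher (right, orange) or lower (left, blue) in the averaged Nkx2-5 effect, in percent, with the number of measured genes in brackets. Dashed lines mark the shares over all 20875 probe sets, 5.44% higher and 10.2% lower, which are not matched for level. Immediate early genes reach furthest to the right, and mitosis and DNA replication furthest to the left.

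Of 33 genes of the amino acid stress response, 11 rose and 1 fell (33.3% and 3.03%, beside 5.44% and 10.2% of all probe sets). Without any one of WT replicates 1 and 3 and Nkx2-5 KO replicates 1 and 2, 7 rose. In double KO against Tbx5 KO hearts 2 were called higher and 2 lower (median change -0.05), and in Nkx2-5 KO against WT hearts 10 were called higher and none lower (median change 0.33). The list mean was 9.93 to 10.29 in double KO hearts against 9.98 to 10.17 in Tbx5 KO hearts, which overlapped, and 10.30 to 10.45 in Nkx2-5 KO hearts against 9.81 to 10.09 in WT hearts, which did not. No member had a called difference between the states. Ddit3, a stress-induced factor, rose by 0.98 ± 0.18 (adjusted p = 0.003) and Ppp1r15a, which reverses the translational block, by 0.74 ± 0.10 (adjusted p = 0.000815). Of 29 chaperones of the unfolded protein and heat shock response, 10 fell and 2 rose (34.5% and 6.9%, beside 10.2% and 5.44%). Only 1 of the 2 rises was called without WT replicate 1 or 3, Nkx2-5 KO replicate 1, Tbx5 KO replicate 2 or double KO replicate 2. Hsph1, a large heat shock protein, read 10.57, 10.68 and 10.60 in Nkx2-5 KO hearts, against 11.54, 11.52 and 11.65 in WT hearts. It read 9.88, 9.71 and 10.21 in double KO hearts, against 11.01, 11.04 and 11.18 in Tbx5 KO hearts, so that mutant and intact arrays did not overlap (-1.05 ± 0.085, adjusted p = 2.39e-05). The small heat shock protein Hspb8 fell by 1.08 on the log2 scale (SE 0.16, adjusted p = 0.000928). Of 22 p53 targets and apoptosis genes, 4 rose and 4 fell (18.2% each, beside 5.44% and 10.2% of all probe sets).

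Of the 36 lists, those of mitosis and DNA replication had the largest shares of falls. Of 33 DNA replication genes, 27 fell (81.8%, beside 10.2% of all probe sets) and none rose, with a median change of -0.62. Their mean level was 9.99 to 10.33 in Nkx2-5 KO hearts against 10.53 to 10.56 in WT hearts, and 9.27 to 9.78 in double KO hearts against 10.33 to 10.39 in Tbx5 KO hearts. In double KO against Tbx5 KO hearts 26 were called lower (median change -0.88, background 7.84%). In Nkx2-5 KO against WT hearts 4 were (median change -0.39, background 2.4%). The difference between the states was called for 1 of the 33. Fen1, which trims Okazaki fragments, fell by 1.06 on the log2 scale (SE 0.097, adjusted p = 6.68e-05). Unlike the list medians, its effects were close to each other, -1.09 in hearts without Tbx5 and -1.03 in hearts with it. Gins1, a subunit of the replicative helicase, fell by 1.30 (SE 0.18, adjusted p = 0.000666), with no overlap among the 12 arrays.

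Of 31 mitosis genes, 26 fell (83.9%) and none rose, with a median change of -0.80. All 31 were called lower in double KO against Tbx5 KO hearts, where the background was 7.84%, and none was called in Nkx2-5 KO against WT hearts, where it was 2.4%. The list mean was 9.72, 9.92 and 10.57 in double KO hearts against 11.34 to 11.45 in Tbx5 KO hearts, while it was 11.07 to 11.25 in Nkx2-5 KO hearts against 11.32 to 11.47 in WT hearts. Double KO replicate 3 stood above the other two in both lists. The count of falls was 13 without Tbx5 KO replicate 1 or 3, 14 without double KO replicate 2 and 16 without Tbx5 KO replicate 2. Rb1, which holds back entry into the cycle, rose by 0.82 ± 0.064 (adjusted p = 2.01e-05), with no overlap among the 12 arrays, and Ccne2, the cyclin of the same step, fell by 0.91 on the log2 scale (SE 0.16, adjusted p = 0.00233). In the list of cyclin-dependent kinase inhibitors and G1 cyclins 8 of 21 genes fell and 1 rose (38.1% and 4.76%, beside 10.2% and 5.44%). Without Tbx5 KO replicate 1 or 2, 5 fell.

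**Figure D3:**
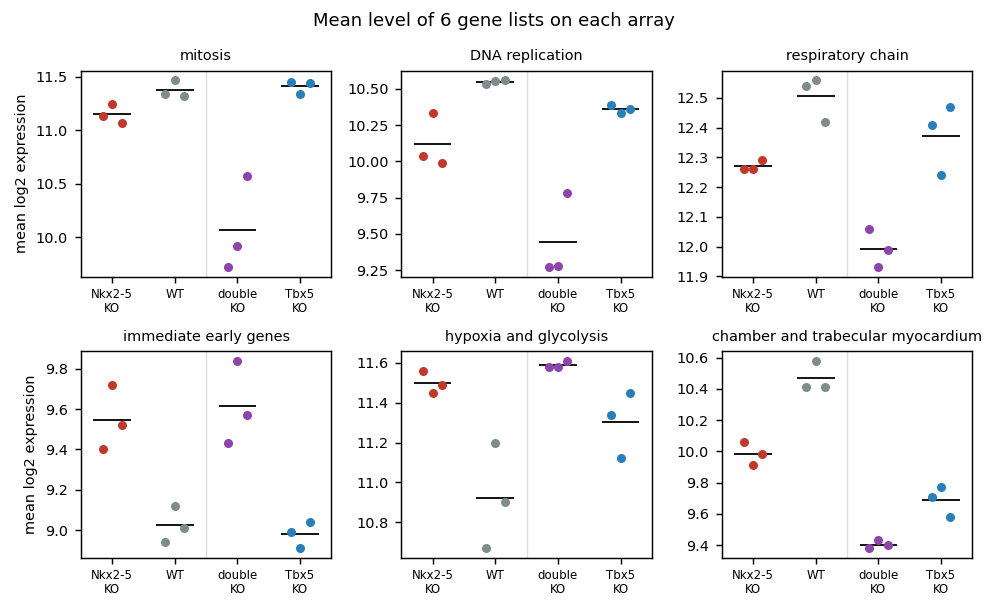
Mean level (log2 expression) of 6 gene lists on each array, with black lines for the group means. Double KO hearts are lowest for mitosis (9.72 to 10.57), DNA replication and the respiratory chain, and immediate early genes are higher in both Nkx2-5-mutant groups.

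Markers of other cell types were measured to see what else moved with the genotype. Of 28 foregut and visceral endoderm markers, 6 rose (21.4%, beside 5.44% of all probe sets) and none fell. Cdh1, the epithelial cadherin, rose by 1.02 ± 0.20 (adjusted p = 0.00458) and Apoe, a lipid carrier, by 0.77 ± 0.13 (adjusted p = 0.00172). The mean of that list was 8.61 to 8.74 in Nkx2-5 KO hearts against 8.21 to 8.50 in WT hearts, and 8.64 to 8.82 in double KO hearts against 8.40 to 8.48 in Tbx5 KO hearts, and its part in the other rises was not tested. Endocardium and endothelium had 1 rise, of Flt1 (0.75 ± 0.15, adjusted p = 0.00604), and 1 fall, of Npr3, among 31 genes. Each is 3.23%, beside 5.44% higher and 10.2% lower of all probe sets. Blood lists had 1 rise among 12 erythroid genes (8.33%) and 1 fall, of Plac8, among 19 others (5.26%). The erythroid mean ranged over 9.79 to 10.63 in Nkx2-5 KO hearts and 9.64 to 11.11 in WT hearts, and over 9.39 to 9.77 in double KO hearts and 9.92 to 10.03 in Tbx5 KO hearts. Pharyngeal mesenchyme and neural crest had 1 rise among 23 (4.35%), proepicardium and epicardium 2 among 17 (11.8%), and none of 14 anterior Hox genes was called. In these endothelial, blood, mesenchyme and epicardium lists, leaving out single arrays gave 0 to 4 rises and 0 to 4 falls a list.

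Trophoblast and decidua genes stood out on the 3 Tbx5 KO arrays. Their mean was 6.65 to 6.87 in Nkx2-5 KO hearts and 6.62 to 6.71 in WT hearts, and 6.71 to 6.82 in double KO hearts against 7.48 to 7.54 in Tbx5 KO hearts. The 3 called falls of that list of 19 (15.8%, beside 10.2% of all probe sets) were Prl8a2, Prl7a1 and Hand1. They rest in full or in part on these arrays. The count was 1 without Tbx5 KO replicate 1 or 2 or double KO replicate 2, and 5 without WT replicate 1 or Nkx2-5 KO replicate 3. Hand1, which trophoblast also expresses, read 9.15, 9.12 and 9.26 in double KO hearts, against 10.67, 10.35 and 10.56 in Tbx5 KO hearts. In the other pair it read 8.86, 8.80 and 8.82 in Nkx2-5 KO hearts, against 9.44, 9.04 and 9.56 in WT hearts, so it was lower in both.

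Imprinted genes, of which only the copy from 1 parent is active, gave some of the largest values and did not follow the genotype on every array. Grb10, a maternally expressed growth inhibitor, read 12.66, 12.63 and 12.54 in Nkx2-5 KO hearts, against 8.56, 8.29 and 12.65 in WT hearts. It read 12.88, 12.80 and 11.80 in double KO hearts, against 9.48, 9.03 and 9.81 in Tbx5 KO hearts. WT replicate 3 thus stood with the mutant hearts, and the other 5 intact hearts were low. Igf2r, the maternally expressed receptor that clears Igf2, read 12.84 on that WT array and 10.30 and 10.67 on the other WT arrays, and Zim1 read 10.07 there and 7.06 and 7.11 on the others. The changes were 2.92 ± 0.59 for Grb10, 2.32 ± 0.35 for Igf2r and 2.04 ± 0.41 for Zim1 (adjusted p-values of 0.00527, 0.00123 and 0.00527). Without WT replicate 3 they were 3.56, 2.72 and 2.50. These were the only rises among 15 maternally expressed genes (20%, beside 5.44% of all probe sets), and none fell.

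The paternally expressed genes went both ways, with 7 of 18 lower and 2 higher (38.9% and 11.1%, beside 10.2% and 5.44%). Plagl1, a zinc finger regulator of growth, read 8.25, 10.52 and 7.67 in Nkx2-5 KO hearts, against 11.94, 12.51 and 12.08 in WT hearts. It read 11.64, 11.76 and 11.64 in double KO hearts, against 12.27, 12.58 and 12.21 in Tbx5 KO hearts. The change was -2.02 ± 0.52 (adjusted p = 0.0195), with effects of -0.67 in hearts without Tbx5 and -3.37 in hearts with it, and the difference between the states did not pass (2.69, adjusted p = 0.184). Ndn fell by 0.66 on the log2 scale (SE 0.083, adjusted p = 0.000433), with no overlap among the 12 arrays. Igf2, a fetal growth factor, had a change of 2.22 ± 0.61 (adjusted p = 0.026), which lost its call without WT replicate 1 or 2, Nkx2-5 KO replicate 3 or double KO replicate 2, and its intact hearts were spread widely. It read 12.93 on WT replicate 3 against 9.57 and 9.76 on the other WT arrays, and 12.30, 9.13 and 12.34 on the Tbx5 KO arrays. Nnat, whose change was -1.55 ± 0.47 (adjusted p = 0.0416), read 11.52 in Nkx2-5 KO replicate 2 and 11.58 in double KO replicate 3, inside the range of the intact hearts, and lost its call without most single arrays. The 7 falls came down to 3 or 4 without WT replicate 2, Nkx2-5 KO replicate 1 or 3, Tbx5 KO replicate 2 or double KO replicate 2, and the 2 rises, Igf2 and Dlk1, to 1 or 0 without any array but WT replicate 3, Nkx2-5 KO replicate 1 or Tbx5 KO replicate 3.

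**Figure D4:**
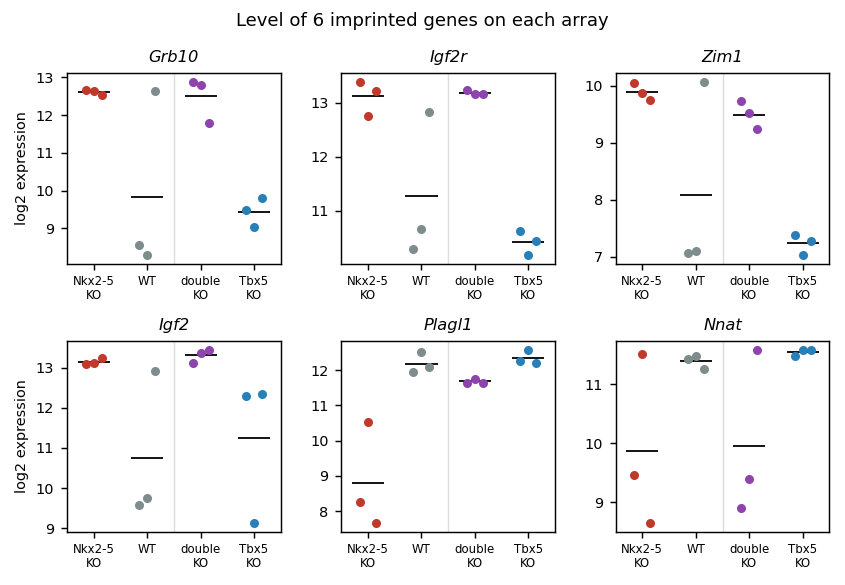
Level (log2 expression) of 6 imprinted genes on each array, with black lines for the group means. WT replicate 3 (right-hand grey point) sits near the mutant hearts for Grb10, Igf2r, Zim1 and Igf2, at 12.65 against 8.56 and 8.29 for Grb10. For Plagl1 the double KO arrays (11.64 to 11.76) lie near the intact ones. For Nnat, Nkx2-5 KO replicate 2 and double KO replicate 3 lie within the range of the intact ones.

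The averaged effect was then set beside the 2 comparisons it averages, which share no array. In double KO against Tbx5 KO hearts 2220 probe sets were called (10.6%), 584 higher (2.8%) and 1636 lower (7.84%), and in Nkx2-5 KO against WT hearts 867 were called (4.15%), 365 higher (1.75%) and 502 lower (2.4%). Of the 3262 averaged calls, 3261 had the same sign in both comparisons, against 67% of all probe sets, but a call on the average largely fixes this. The exception was Bmp5. In both comparisons 459 of them were called, in double KO against Tbx5 KO hearts alone 1309, in Nkx2-5 KO against WT hearts alone 290, and in neither 1204. Of the calls in double KO against Tbx5 KO hearts, 20.9% were also called in Nkx2-5 KO against WT hearts, and 53.5% of the calls in Nkx2-5 KO against WT hearts were also called in double KO against Tbx5 KO hearts. The 2 effects had a Pearson correlation of 0.56 over all probe sets, which share the arrays and are no replicates of each other. Of the 2127 falls, 1575 (74%) were larger in hearts without Tbx5, and of the 1135 rises 578 (50.9%). No share over all probe sets was computed to set beside these. The double KO arrays had the narrowest spread over probe sets (SD 2.05 to 2.10, against 2.13 to 2.16 for Tbx5 KO). Of the falls, 1968 were above the median level. What the narrower spread adds to the 74% was not tested.

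**Figure D5:**
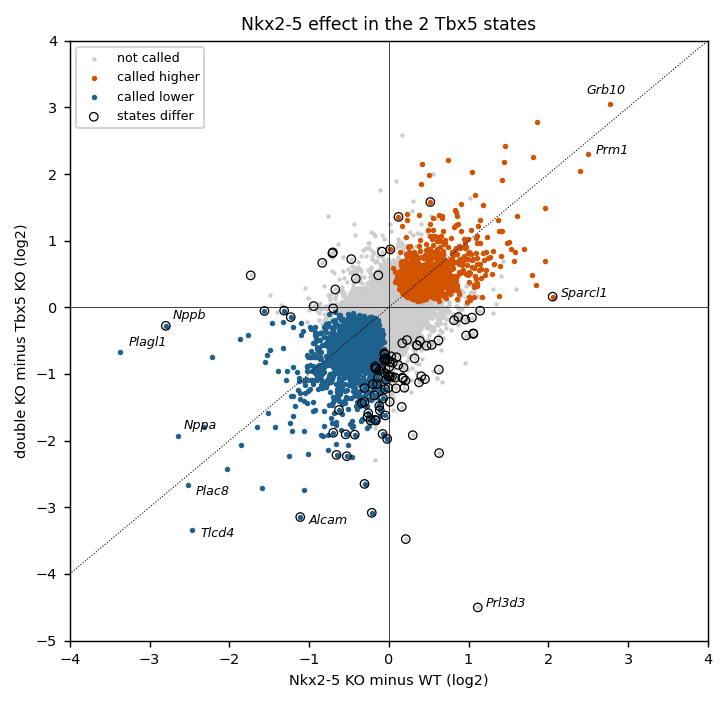
Nkx2-5 effect in hearts without Tbx5 (double KO minus Tbx5 KO, vertical axis) against that in hearts with Tbx5 (Nkx2-5 KO minus WT, horizontal axis), both in log2 units, for 20875 probe sets. Orange and blue points are called higher or lower in the averaged effect, rings mark the 105 probe sets whose effect differed between the states, and the dotted line marks equal effects. Most coloured points lie in the lower left and upper right corners.

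The difference between the 2 effects was called for 105 probe sets (0.503%), 50 of which were also averaged calls. It was more negative in hearts without Tbx5 for 87 (0.417%) and more positive for 18 (0.0862%). Without single arrays the count was 259 (double KO replicate 3), 113 (WT replicate 2) or, for every other array, 29 to 68, and it was 1853 at an unadjusted p under 0.05.

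For Nppb, brain natriuretic peptide, the Nkx2-5 effect was smaller in hearts without Tbx5. It read 9.16, 9.79 and 9.07 in double KO hearts, against 10.08, 9.78 and 8.99 in Tbx5 KO hearts, and 10.14, 9.93 and 9.96 in Nkx2-5 KO hearts, against 12.79, 13.13 and 12.49 in WT hearts. WT hearts stood far above all others, and the double KO and Tbx5 KO hearts overlapped. The effect was -0.28 in hearts without Tbx5 and -2.79 in hearts with it, and the difference was 2.52 (adjusted p = 0.0134). For Nppa the same difference was 0.72 and did not pass (adjusted p = 0.622).

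For Alcam the effect was -3.15 in hearts without Tbx5 and -1.11 in hearts with it, a difference of -2.04 (adjusted p = 0.00674). The mitosis genes included 7 with a called difference, among them Birc5, a subunit of the chromosomal passenger complex, with effects of -1.70 in hearts without Tbx5 and -0.23 in hearts with it (difference -1.46, adjusted p = 0.00753). Sparcl1, a matrix protein, had an effect of 0.16 in hearts without Tbx5 and 2.06 in hearts with it (difference -1.89, adjusted p = 0.00953). Its level was 12.15 ± 0.21 in double KO hearts against 11.99 ± 0.28 in Tbx5 KO hearts (SD, n = 3 each), and 12.37 to 12.62 in Nkx2-5 KO hearts against 10.15 to 10.78 in WT hearts.

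The calls on the heart genes Nppa, Nppb, Pln, Hcn4, Vsnl1 and Rgs6 were lost only when the Tbx5 label was left out of the model. Without that label, which leaves the Tbx5 effect in the residual spread, their changes were the same and their adjusted p-values were 0.0657 to 0.607. Gja5, whose call was also lost under other alternatives, had an adjusted p of 0.117 in that fit (limma). List counts fell too in that fit: falls were 11 for mitosis, 11 for the respiratory chain, 4 for chamber genes, and 1 for cyclin-dependent kinase inhibitors and G1 cyclins. Rises were 7 for the amino acid stress response, 3 for FGF, 2 for the inflow tract and 0 for calcium handling, while they were 12 for immediate early genes and 15 for low oxygen and glycolysis.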

How the data were processed

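Total RNA of dissected hearts was isolated, amplified, labelled with biotin and hybridised to Affymetrix arrays, per the labels' protocols. The authors deposited 1 log2 value for each probe set and array; the sources used here do not name the software that summarised and normalised them. The values ran from 3.21 to 14.7, as log2 values do. Groups came from the titles, and each column of the table belonged to 1 of the 12 arrays. Correlations across probe sets were 0.969 to 0.984 within groups and 0.958 to 0.981 between them, and 0 pairs of arrays were identical. Precision is limited by the 3 arrays a group.

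Names came from the platform annotation: 21789 had exactly 1 symbol, 1621 several and 12147 none listed. Of the 21789, 21695 matched RefSeq (GRCm38.p6) by Entrez number; 790 on X, 30 on Y and 94 unmatched ones stayed in the fit and were left out of counts and names. Of a gene with several probe sets (953 genes), lists used the one with the highest mean.

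The averaged effect was the Nkx2-5 coefficient of an additive model with the Tbx5 label (limma 3.58.1, R 4.3.3, lmFit and eBayes, 9 residual degrees of freedom, two-sided, Benjamini-Hochberg adjusted p under 0.05). Effects within each Tbx5 state and their difference came from 4 group means. The fit was tried on simulated data with independent noise and added Nkx2-5 effects. These data held no Tbx5 effect and no difference between the states, so they do not show how the fit handles either. The members, the 36 gene lists (855 genes, of which 786 were measured) and the tests were chosen with earlier results of these data known, and the T-box element was added after the shares of the first had been seen. List counts are a description, with no test of the list. The genes named were Nkx2-5, Tbx5, 14 cardiac genes, the 12 largest rises and 12 largest falls without overlap in either state, up to 5 called genes of a list, and the 8 averaged calls with the largest called difference; predicted genes, RIKEN clones, small RNAs and receptor families for odour were passed over. Other names complete a count or a pattern and were chosen after their values were seen. Alternatives were the model, covariate, normalisation, array weights, variance trend, filters, probe sets tested, the replicate number as a block and leaving out each array. Tables and plots were made with matplotlib 3.10.9, numpy 2.4.6 and pandas 2.3.3 in Python 3.11.15.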

Additional observations from a re-analysis of the deposited data

Results flagged for a closer look

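For 12 genes called in the averaged effect, the Nkx2-5 effect differed between hearts without and with Tbx5. The test was that of the difference (limma, adjusted over all probe sets). Values are log2 differences, the effect in hearts without Tbx5 minus that in hearts with it. The Nkx2-5 effect was less negative without Tbx5 for Nppb (2.52) and for Casq2 (1.26), the calcium store protein of heart muscle. It was more negative without Tbx5 for Alcam (-2.04), Bmp5 (-1.05), the calcium-binding protein S100a6 (-2.35) and 4 genes of cell division, Spc25 (-1.82), Birc5 (-1.46), Prc1 (-1.38) and Dscc1 (-1.71). For Sparcl1 it was -1.89, with effects of 0.16 in hearts without Tbx5 and 2.06 in hearts with it. For the placental hormones Prl8a2 (-2.87) and Prl7a1 (-1.96), the level was raised on the 3 Tbx5 KO arrays and low on the other 9.

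These differences are of unequal firmness. Those of Alcam, Sparcl1, Bmp5, Spc25, Birc5, Prl8a2 and Prl7a1 were called under every alternative that gave a value. That of Nppb was lost when all probe sets of the table were tested (adjusted p = 0.0597), and that of Prc1 without Nkx2-5 KO replicate 1 (adjusted p = 0.0522). That of Dscc1 was lost under 4 alternatives, among them leaving out Nkx2-5 KO replicate 1, Tbx5 KO replicate 3 or double KO replicate 2. Those of S100a6 and Casq2 were lost under 10 and 13 alternatives, with adjusted p-values up to 0.125.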

How the results depend on the processing

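Of 148 named genes 143 were called, and 86 of these kept their call under all of the 23 alternatives tried that gave a value; 20 lost it only without the Tbx5 covariate and 37 under some other alternative, and of these 143 none changed sign (0). Of the 5 that were not called, 2 with changes near 0 changed sign: Tbx20 (0.03 after a further quantile normalisation, -0.11 to 0.01 leaving out 1 array) and Bmp10 (-0.01 after centring each array, -0.05 to 0.14 leaving out 1 array). Without the covariate, 1760 probe sets were called, 632 higher and 1128 lower, against 3262 with it. Centring each array on its median gave 631 higher calls (18.3% of calls, against 34.8%) and 68 called differences. With all probe sets of the table tested, the differences were 30 and the calls in Nkx2-5 KO against WT hearts 365. Leaving out 1 array at a time gave 2464 to 3269 averaged calls, 829 to 1098 higher and 1624 to 2171 lower, with the fewest in all and higher without double KO replicate 2 and the fewest lower without Tbx5 KO replicate 1. It gave 1346 to 2314 calls in double KO against Tbx5 KO hearts (1346 without double KO replicate 2, 1410 without Tbx5 KO replicate 1). It gave 150 to 1098 calls in Nkx2-5 KO against WT hearts (150 and 327 without Nkx2-5 KO replicates 1 and 3, 203 and 305 without WT replicates 1 and 3). The differences ranged from 29 to 259, and only the counts without WT replicate 2 (113) and double KO replicate 3 (259) were above 105.

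The replicate numbers did not pair the arrays: correlations of deviations were -0.26 to 0.21 for 18 same-numbered pairs and -0.26 to 0.25 for others, and 2 of 12 arrays were closest to their own number. With a replicate block, 2842 averaged calls and 47 differences remained by count. Among lists, centring on the median gave 13 falls for the sarcomere, 22 for the citric acid cycle and fatty acid oxidation, 4 rises for FGF and 7 for the amino acid stress response. Dim probe sets limit what can be called: 459 of the 3262 calls lay below the median level. The causes were not tested.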

Other observations

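The genes next to Nkx2-5 on chromosome 17 were also examined. Of the 10 measured neighbours on each side, 8 of 20 were called, 2 higher and 6 lower. Crebrf, 2 genes away, rose by 1.73 ± 0.25, and Uqcc2, an assembly factor of the respiratory chain 6 genes away on the other side, fell by 0.98 on the log2 scale (SE 0.12, adjusted p = 0.00034, limma). Over whole chromosomes the share of probe sets called ran from 11.5% on chromosome 7 to 19.8% on chromosome 12, and it was 16.6% on chromosome 17.

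In 5 genes the Nkx2-5 effect was called in both Tbx5 states with opposite signs, so that the averaged effect hides it. Shox2, a homeobox factor of the sinus venosus, changed by 0.82 in double KO against Tbx5 KO hearts (adjusted p = 0.00436) and by -0.70 in Nkx2-5 KO against WT hearts (adjusted p = 0.0241). The nuclear receptor Nr2f1 changed by 0.81 and Mab21l2 by 0.67 in double KO against Tbx5 KO hearts, and by -0.71 and -0.83 in Nkx2-5 KO against WT hearts. Htra1, a secreted protease, and Uevld went the other way, with changes of -0.58 and -0.50 in double KO against Tbx5 KO hearts and of 0.47 and 0.62 in Nkx2-5 KO against WT hearts. Their averaged changes lay between -0.084 and 0.063, and none of these passed. The genes were chosen after their values were seen.

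Of 35 matrix and cushion genes, 4 rose and 1 fell (11.4% and 2.86%, beside 5.44% and 10.2% of all probe sets). Col2a1, a fibrillar collagen, fell by 0.47 on the log2 scale (SE 0.056, adjusted p = 0.00034), with no overlap among the 12 arrays, and Sox9, a factor of cushion and cartilage cells, rose by 0.49 ± 0.12 (adjusted p = 0.0154). Leaving out single arrays gave 2 to 5 rises and 1 to 3 falls. Among 9 widely used reference genes, Ppia fell by 0.29 (SE 0.059, adjusted p = 0.00543) with no overlap, Sdha fell and Tfrc rose. These are 22.2% lower and 11.1% higher, beside 10.2% and 5.44% of all probe sets, which are not matched for level. Leaving out single arrays moved the counts to 1 to 3 falls and 1 to 2 rises.

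For Unc13a, 1 probe set fell (-0.44, adjusted p = 0.026) and another 2 rose (0.58 and 0.38, adjusted p-values of 0.00412 and 0.00501); it was the 1 gene whose called probe sets moved in opposite directions.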
